A study of Mus musculus with 12 samples.

Results

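The genes described here encode the protein kinases of the MAP kinase cascades, the proteins that bind them and the dual-specificity phosphatases (DUSP) that switch them off, and the question was how N6-methyladenosine (m6A) peaks on their transcripts differed between microglial cells without and with Mettl3. Members were taken by gene symbol from both deposited peak lists: every Map4k, Map3k, Map2k, Mapk and Mapkapk gene and every numbered Dusp gene, with 1 MAP3K gene left out by name. Of 14078 genes with a peak in either list, 62 were members. The name rule takes 76 genes of the RefSeq table, and the 14 without a peak in the lists used here were Dusp9, Dusp13, Dusp15, Dusp21, Dusp26, Map3k19, Map3k21, Map3k7cl, Mapk4, Mapk10, Mapk12, Mapk13, Mapk15 and Mapk8ip2.

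The cells were BV2, an immortalised mouse microglial line, and all were treated with lipopolysaccharide (LPS), the bacterial cell wall component that Toll-like receptor signalling recognises. The groups were Mettl3 knockout (KO) cells given LPS and wild-type (WT) cells given LPS, with 3 libraries of m6A immunoprecipitate (IP) and 3 of input for each genotype, 12 in all. No group without LPS was used here, the labels give no dose or time for it, and they do not say whether the knockout is 1 clone. The authors deposited 1 peak list per genotype, so there are no values per library, no spread between replicates and no test in what follows. Each value is a peak's log2 of IP over input as the authors computed it, each adjusted p is theirs, and the IP efficiency and scaling of either list are not stated.

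MAP kinases are the last kinases of a relay in which a MAP4K or small GTPase activates a MAP3K, the MAP3K phosphorylates a MAP2K, and the MAP2K phosphorylates a MAP kinase. The ERK, p38 and JNK branches carry the LPS signal to cytokine genes in macrophages and microglia, and DUSP proteins end it by removing the phosphates from the MAP kinase. METTL3 is the catalytic subunit of the complex that places m6A on messenger RNA, mostly near stop codons and in 3′ untranslated regions (UTRs), where the mark is known to affect transcript decay and translation.

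Mettl3 itself carried 6 peaks in the KO list and 3 in the WT list, with a strongest log2 of 2.07 in the KO list and 1.57 in the WT list. The lists give no expression level, so they do not check the knockout, and m6A per transcript and the amount of transcript were not separated. Of 12 fixed microglia and macrophage markers, 11 had a peak in both lists, among them Csf1r, Trem2 and Itgam. The protocol text attached to the samples speaks of neuroblastoma cells. Of 12 neuroblastoma and neuron markers, 1 (Tubb3) had a peak, of 4 oligodendrocyte markers, 1 (Mbp), and of 4 astrocyte markers, 0.

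Nearly all members had a peak in both lists. The KO list had peaks on 62 members and the WT list on 60, and all 60 were shared. The 2 members in the KO list alone were Dusp27, a phosphatase-like protein known from muscle, with 1 peak of 150 bases (log2 1.59, adjusted p 0.000542), and Mapk8ip1, a JNK scaffold, with 1 peak of 452 bases (log2 0.93, adjusted p 0.0305). No member was in the WT list alone. Over all genes, 5.03% had a peak in the KO list alone and 7.44% in the WT list alone.

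The members carried more but weaker peaks in the KO list. There were 220 member peaks in the KO list, or 3.55 per member gene, and 185 in the WT list, or 3.08 per gene. The same held for all genes, with 3.15 peaks per gene in the KO list and 2.74 in the WT list. The median log2 of a member peak was 0.72 in the KO list and 0.87 in the WT list, beside 0.70 (KO) and 0.83 (WT) over all peaks. At 4-fold enrichment or more stood 5 member peaks in the KO list (2.27%, beside 3.93% of all KO peaks) and 23 in the WT list (12.4%, beside 11.7% of all WT peaks).

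The strong peaks were thus spread over few genes in the KO list and many in the WT list. The 5 KO peaks of 4-fold or more lay on Dusp8, Map3k12, Map3k10, Map3k9 and Map2k3os, 1 each. The 23 WT peaks lay on 22 genes, 36.7% of the members in that list beside 28.0% of all genes, while the KO share was 8.06% beside 11.4%. All 5 KO and all 23 WT peaks overlapped a peak of the other list. For 22 of the 23 WT peaks the strongest overlapping KO peak had the lower log2, with a median difference of -0.94 and a range from -1.67 to 0.71. These peaks were chosen for a high WT value, and the part of that choice in the differences was not tested. Of all WT peaks so chosen with an overlapping KO peak, 3373 of 3607 (93.5%) were lower in the KO list. Of the 5 KO peaks, 2 were lower than the strongest overlapping WT peak and 3, on Dusp8, Map3k12 and Map3k10, were higher. Over all genes, 1108 of 1481 KO peaks of 4-fold or more with an overlapping WT peak (74.8%) were lower.

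For each gene the strongest peak in each list was then set side by side, and the difference was taken as KO minus WT on the log2 scale. The median strongest peak of the members was 1.14 in the KO list and 1.62 in the WT list, beside 1.07 (KO) and 1.36 (WT) over all genes. Of the 60 members in both lists, 46 were lower in the KO list and 14 higher, which is 76.7% lower beside 73.4% of all 12323 genes in both lists. The median difference of the members was -0.35 (95% interval over genes -0.67 to -0.13) and that of all genes -0.25. The members' share of lower genes was near the background, so the direction describes the lists as a whole.

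The differences varied among members, as they did among all genes. The middle of the distribution ran from -0.80 to -0.02 between the quartiles, beside -0.64 to 0.015 for all genes. Of the 60 members, 21 (35%) differed by less than 0.2, beside 36.1% of all genes. A strongest peak lower in the KO list by 1 or more was found for 9 members (15%, beside 9.54% of all genes): Map3k6, Dusp23, Map2k3, Mapk8ip3, Map3k3, Dusp4, Map2k4, Map3k13 and Mapk7. Higher by 1 or more was 1 member, Dusp8 (1.67%, beside 0.714% of all genes). In the plot of strongest peaks by gene, 3 of the 22 members past 4-fold in the WT list, Map3k12, Map3k9 and Map2k3os, are also past it in the KO list.

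**Figure D1:**
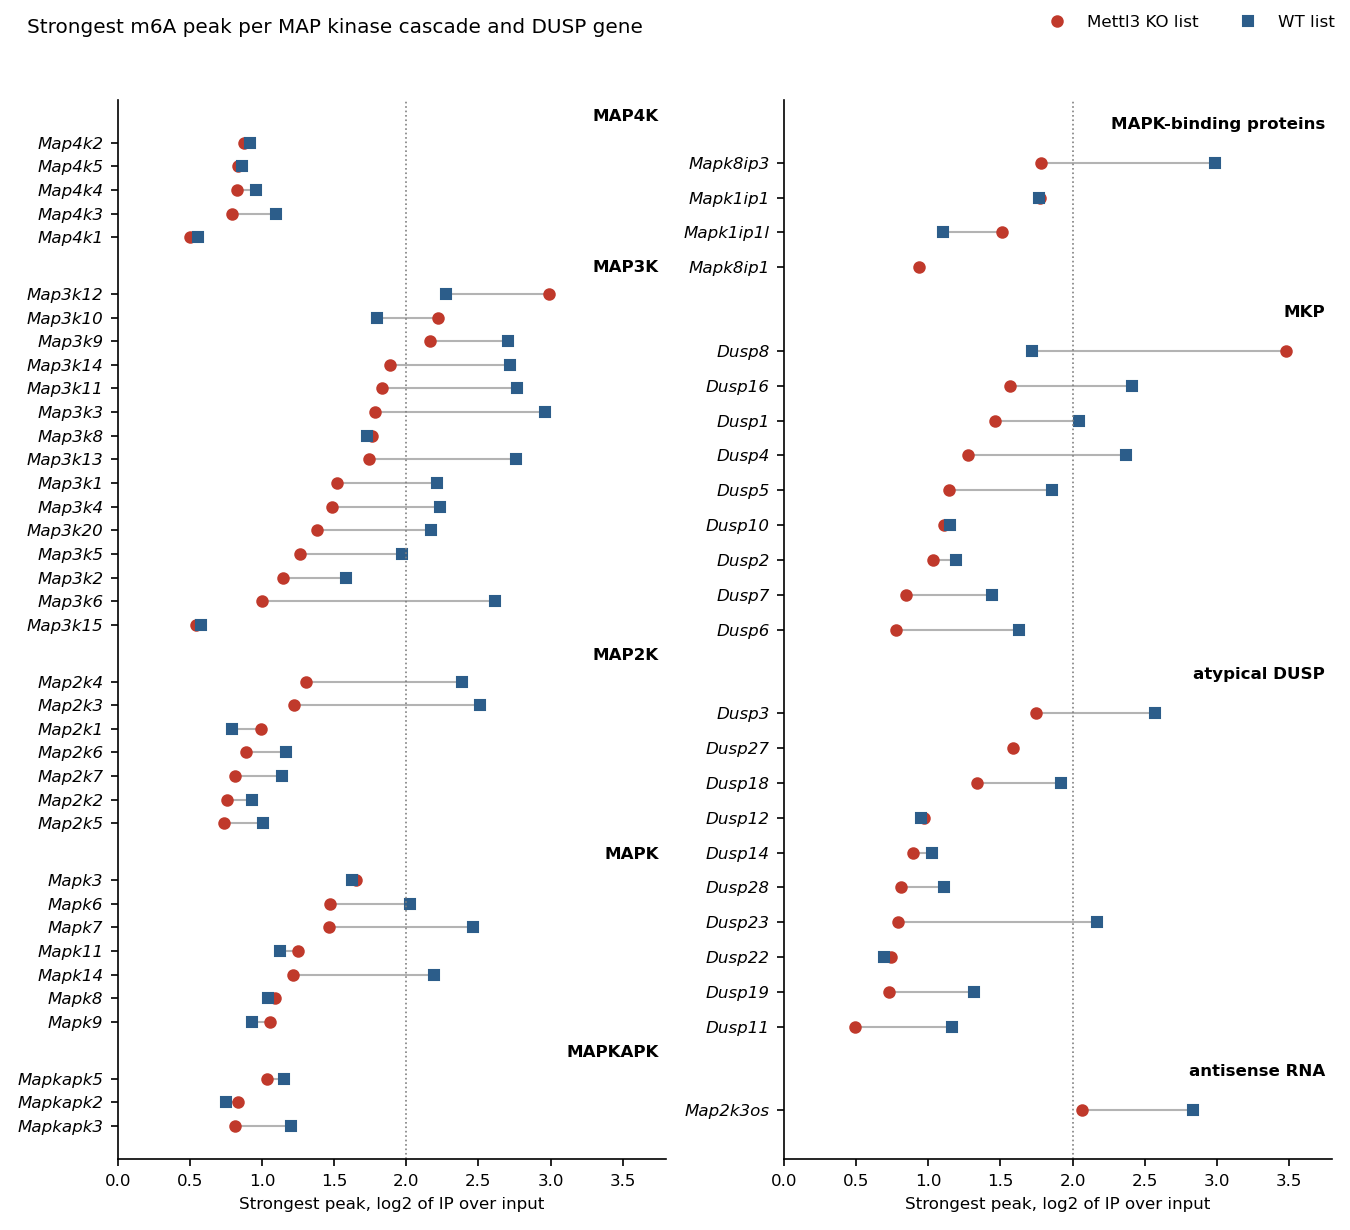
Log2 of IP over input of the strongest m6A peak of the members, by role, with 1 of the 62 not drawn, with the Mettl3 KO list as red circles and the WT list as blue squares. The dotted line marks 4-fold enrichment, which 5 members pass in the KO list and 22 in the WT list, and Dusp27 and Mapk8ip1 have a KO point alone.

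Role classes differed in where their median lay, which is shown in the plot of differences by role. Among the classes of more than 1 gene, the lowest medians were those of the MAP3K genes (-0.71, 15 genes), the MAP kinase phosphatases with a kinase-binding domain (MKP, -0.60, 9 genes) and the atypical DUSP genes (-0.58, 9 genes). The MAP2K genes had a median of -0.28 (7 genes). The MAP4K (-0.05, 5 genes), MAPKAPK (-0.12, 3 genes), MAPK (0.01, 8 genes) and MAPK-binding genes (0.0012, 3 genes) lay closer to 0. With peaks of at most 1000 bases the MAP3K median was -0.18, the MKP median -0.029 and the atypical DUSP median 0.023, and with overlapping strongest peaks the MAPK median was -0.24, so the order of the classes depends on the setting. Genes in a class are not replicates, and these medians were not tested.

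**Figure D2:**
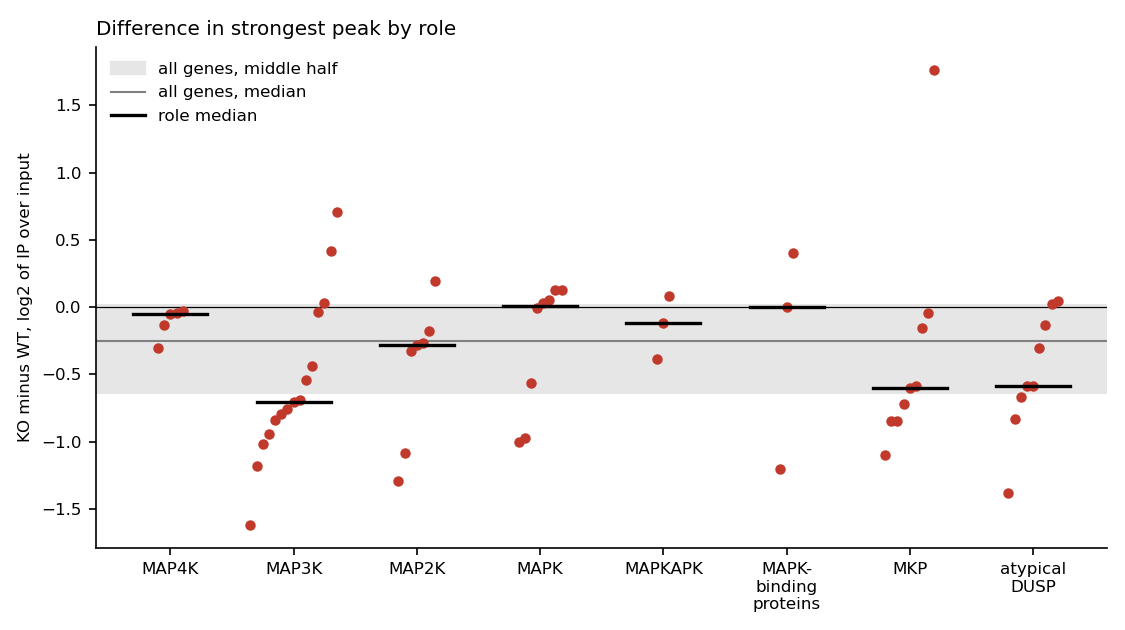
Difference in the strongest peak, KO minus WT on the log2 scale, for the members with a peak in both lists (points) by role. Map2k3os is not drawn. Black bars give the role median, and grey gives the median and quartiles of all genes. The MAP3K, MKP (MAP kinase phosphatase), atypical DUSP and, slightly, MAP2K medians lie below the median of all genes at -0.25, and the single point near 1.77 is Dusp8.

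Before the genes are taken in turn, short 5′ stretches of 3 members are shown. In each, a match to a common m6A sequence lies inside a peak of both lists. RefSeq promoter windows (GRCm38.p6) were found for 52 members, in 64 windows. The first 50 transcribed bases were searched on the transcribed strand for GGACT, a frequent form of the m6A consensus, which overlaps no other motif searched. It stood in 7 member windows (10.9%), beside 5.76% of all 32851 windows, and its reverse complement in 3 member windows, beside 4.87% of all. In Dusp1, Map3k10 and Map3k6 a peak of both lists covered the match, while in Dusp7, Map4k1 and Mapkapk3 no peak of either list did. The match in the remaining member window is not described here. The 25-base stretches are given 5′ to 3′ on the transcribed strand, with the match in capitals.
Dusp1 (chr17:26508452-26508476, minus strand): gcgcagtgaaGGACTggcgggagga
Map3k10 (chr7:27674564-27674588, minus strand): gcggggagagGGACTtagggggccg
Map3k6 (chr4:133240841-133240865, plus strand): tgacttcccaGGACTcttctgtgac
The covering peaks had a log2 of 1.06 in the KO list and 1.61 in the WT list for Dusp1, 1.04 (KO) and 1.80 (WT) for Map3k10, and 0.94 (KO) and 2.62 (WT) for Map3k6. They differ in resolution: the Map3k6 peaks spanned 550 bases in the KO list and 2136 in the WT list, while those of Dusp1 spanned 43941 (KO) and 44399 (WT) bases of genome, introns included, because the lists' annotation lets Dusp1 run to position 26562128, upstream of the RefSeq start used here. A match is a description of these letters and does not show that the base is methylated.

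The MAP4K genes, which encode kinases of the STE20 family that activate MAP3K proteins, had weak peaks in both lists. All 5 were lower in the KO list, beside 73.4% of all genes, with differences from -0.30 to -0.03. None reached 4-fold in either list, beside 11.4% of all genes in the KO list and 28.0% in the WT list. Map4k4, a kinase acting upstream of JNK, had 5 peaks in each list, with the strongest at log2 0.83 in the KO list (625 bases, 3′ UTR) and 0.96 in the WT list (125 bases, intronic). Map4k3 had 0.79 in a KO peak of 350 bases in the 3′ UTR and 1.09 in a WT peak of 350 bases in a coding exon (adjusted p 0.0096), at different sites. With an adjusted p of at most 0.001 Map4k3 (0.0058) and Map4k5 (0.13) turned higher, as did Map4k2 (0.18) with peaks of at most 1000 bases. Map4k1, known from immune cells, had the same 918-base 3′ UTR peak in both lists, at 0.50 in the KO list and 0.55 in the WT list. Map4k2 and Map4k5 differed by 0.04 or less.

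The MAP3K genes formed the class with the most peaks, 70 in the KO list and 61 in the WT list, and 12 of 15 genes were lower in the KO list, beside 73.4% of all genes. A peak of 4-fold or more was found on 3 of them in the KO list and on 10 in the WT list. Over all genes the shares were 11.4% (KO) and 28.0% (WT).

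Map3k6, which encodes a relative of the stress-activated kinase ASK1, had the most negative difference of any member. Its strongest peak was 0.998 in the KO list (200 bases, 3′ UTR, chr4:133252726-133252925) and 2.62 in the WT list (2136 bases, 5′ UTR, chr4:133240818-133242953), a difference of -1.62. These are opposite ends of the gene. At the gene start itself, over the stretch shown above, the KO list held a peak of 550 bases at 0.94, and at the gene end the WT list held 1.17. The KO list broke the gene into 7 peaks, the WT list into 2.

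Map3k3 and Map3k1 encode MAP3K proteins of the MEKK group, which feed the JNK, p38 and ERK5 branches. Map3k3 had 1.78 in the KO list (3182 bases, chr11:106152067-106155248) and 2.96 in the WT list (4046 bases, chr11:106151401-106155446), both in the 3′ UTR. Map3k1 had 1.52 in a KO peak of 4302 bases and 2.21 in a WT peak of 5275 bases, both in coding exons. In both genes the peaks of the lists overlapped without the same borders, and the KO value was the lower one.

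Map3k5 encodes ASK1, a kinase that responds to oxidative stress and activates p38 and JNK. It had 1.26 in the KO list (5837 bases) and 1.97 in the WT list (4370 bases), both in the 3′ UTR. Map3k4, which GADD45 proteins activate, had 1.48 in a KO peak of 17894 bases and 2.23 in a WT peak of 17919 bases, both annotated as coding exon. Map3k20, a kinase activated by stalled ribosomes, had 1.38 in the KO list and 2.17 in the WT list at the 3′ end.

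Map3k14 encodes NIK, the kinase of noncanonical NF-kappaB signalling. Its strongest peak lay at the gene end in both lists, at 1.88 over 1075 bases in the KO list and 2.72 over 1175 bases in the WT list. Map3k13, which encodes a leucine zipper kinase upstream of JNK, had 1.74 in the KO list and 2.76 in the WT list, over about the same stretch (20479 bases in KO, 20379 in WT). With 9 KO peaks and 13 WT peaks it was among the members split into the most pieces.

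The mixed-lineage kinases activate JNK below Rac and Cdc42. Map3k11 had 1.83 in the KO list (768 bases) and 2.77 in the WT list (2204 bases), and Map3k9 had 2.16 (KO) and 2.70 (WT) over 7370 bases in each list. The strongest peak of Map3k10 was higher in the KO list, with 2.22 in the KO list (1559 bases, gene end) and 1.80 in the WT list. The WT value belongs to a single peak of 18224 bases that runs over the whole gene, while the KO list cut the gene into 3 peaks, of which the one at the gene start, over the stretch shown above, had 1.04. By the mean over its peaks Map3k10 was lower in the KO list, at -0.48.

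Map3k12, which encodes the neuronal stress kinase DLK, had the strongest member peak outside Dusp8 in the KO list. It reached 2.99 in the KO list (7908 bases) and 2.28 in the WT list (7894 bases), at the gene start in the 5′ UTR in both, a difference of 0.71. Its mean over all peaks differed by 0.04. Map3k8 encodes TPL2, the MAP3K that links Toll-like receptors to MEK1 and ERK. Its 5′ UTR peak was 1.76 in the KO list (4113 bases) and 1.73 in the WT list (4138 bases), nearly the same value. The KO list also held a weaker peak (0.55). By the mean over its peaks Map3k8 was lower in the KO list, at -0.57. Map3k2 had 1.15 in the KO list and 1.58 in the WT list. Map3k15 had 0.54 (KO) and 0.57 (WT), in peaks that did not overlap.

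Each MAP2K protein serves a branch, so these genes and the MAP kinases are given by branch, following the known partners. In the ERK branch, Map2k1 (MEK1) had 0.99 in the KO list (375 bases, coding exon) and 0.79 in the WT list (141 bases, 5′ UTR at the gene start). Map2k2 (MEK2) had 0.76 in the KO list (850 bases) and 0.93 in the WT list (475 bases), both in the 3′ UTR. Mapk3 (ERK1) had 1.65 in the KO list (3601 bases) and 1.62 in the WT list (3476 bases), both in the 5′ UTR from the gene start (chr7:126759601-126763201 in the KO list). By the strongest peak none of these 3 genes differed by more than 0.20, but the strongest Map2k1 peaks lay at different sites. At the coding exon the WT list held 0.57 (350 bases), and at the gene start the KO list held 0.63 (366 bases). The order of Map2k1 therefore turns with the site compared.

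In the p38 branch the values lay further apart. Map2k3, a main activator of p38 in macrophages, had 1.22 in the KO list (764 bases, chr11:60952048-60952811) and 2.51 in the WT list (1799 bases, chr11:60951013-60952811), both at the gene end in the 3′ UTR, a difference of -1.29. Mapk14, which encodes p38 alpha, had 1.22 in the KO list (1525 bases, chr17:28746881-28748405) and 2.19 in the WT list (1425 bases, chr17:28746981-28748405), again at the gene end. Map2k6, the other p38 activator, had 0.88 over 11887 bases in the KO list and 1.16 over 16858 bases in the WT list, and Mapk11, p38 beta, had 1.25 over 375 bases in the KO list and 1.12 over 350 bases in the WT list. Map2k3, Mapk14 and, less far, Map2k6 were thus lower in the KO list, and Mapk11 was slightly higher.

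In the JNK branch both activators were lower in the KO list. Map2k4 had 1.30 in the KO list (6638 bases) and 2.39 in the WT list (6963 bases), a difference of -1.08 at a 3′ UTR peak that overlapped between the lists. Map2k7 had 0.81 in the KO list (1135 bases) and 1.14 in the WT list (1350 bases), both annotated as 3′ UTR, but these peaks did not overlap. The strongest Mapk8 peaks lay at different sites, with 1.09 in a KO peak of 125 bases in an intron (adjusted p 0.0126) and 1.04 in a WT peak of 5205 bases in the 3′ UTR. The KO peak that overlaps the WT one had 0.57, a difference of -0.47, so the order of Mapk8 turns with the site compared. Mapk9 had 1.06 over 450 bases (KO) and 0.93 over 600 bases (WT) in the 3′ UTR.

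The remaining kinases of these tiers are Map2k5 and its target Mapk7 (ERK5), and Mapk6 (ERK3, an atypical MAP kinase). Mapk7 had 1.46 in the KO list (3638 bases) and 2.47 in the WT list (3738 bases), both in coding exons, a difference of -1.001. Map2k5 had 0.74 in the KO list and 1.005 in the WT list, in peaks that did not overlap. Mapk6 had 1.47 in the KO list (2899 bases) and 2.03 in the WT list (3149 bases) in the 5′ UTR.

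The kinases that MAP kinases activate in turn had weak peaks in both lists. Mapkapk2 encodes MK2, which p38 activates and which stabilises cytokine messages such as that of TNF. It had 0.83 in the KO list (425 bases) and 0.75 in the WT list (350 bases), both at the gene end. Mapkapk3 had 0.81 in the KO list (250 bases) and 1.20 in the WT list (1376 bases), in 3′ UTR peaks that did not overlap, and Mapkapk5 had 1.04 (KO) and 1.15 (WT).

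Of the MAP kinase-binding proteins, Mapk8ip3, a JNK scaffold that links to kinesin, stood apart. Its strongest peak was 1.78 in the KO list (2281 bases, chr17:24894091-24896371) and 2.99 in the WT list (1784 bases, chr17:24894688-24896471), both in the 3′ UTR, and the WT value was the highest of any member in that list. The KO list split the gene into 13 peaks, of which 12 were at 1.19 or below, and the WT list into 6. Mapk1ip1 had 1.77 in both lists. Mapk1ip1l had 1.51 in a KO peak of 250 bases at the gene start and 1.10 in a WT peak of 6378 bases in the 3′ UTR.

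Map2k3os is a noncoding RNA gene on the strand opposite to Map2k3, beside it and without overlap in the lists' annotation. A single peak of 10951 bases covered it end to end in both lists, at 2.07 in the KO list and 2.84 in the WT list, a difference of -0.77 beside -1.29 for Map2k3.

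The MAP kinase phosphatases are the inducible brakes of the pathway, and 8 of 9 were lower in the KO list, beside 73.4% of all genes. Dusp1, the nuclear phosphatase of p38 and JNK that LPS induces, had 1.46 in the KO list (950 bases, chr17:26505590-26506539) and 2.04 in the WT list (1025 bases, chr17:26505590-26506614), both at the gene end in the 3′ UTR. The peak over the 5′ stretch shown above was also lower in the KO list. Dusp16 and Dusp10 encode phosphatases that prefer JNK and p38. Dusp16 had 1.56 in the KO list (3092 bases) and 2.41 in the WT list (8810 bases), and Dusp10 had 1.11 in the KO list (200 bases) and 1.15 in the WT list (1150 bases), all in the 3′ UTR.

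Of the phosphatases best known for acting on ERK, Dusp4, Dusp5, Dusp6 and Dusp7 were lower in the KO list. Dusp4 had 1.27 in the KO list (2669 bases, chr8:34817226-34819894) and 2.37 in the WT list (3350 bases, chr8:34816545-34819894) at the gene end, a difference of -1.10. Dusp5, a nuclear phosphatase specific for ERK, had 1.14 in the KO list (4539 bases) and 1.86 in the WT list (12773 bases). Dusp7 had 0.84 in the KO list (250 bases, gene end) and 1.44 in the WT list (3880 bases), in peaks that did not overlap. The strongest KO peak that overlaps the WT one had 0.79.

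Dusp6, the cytoplasmic ERK phosphatase, shows how the peak calls enter these values. The KO list had 4 peaks on it, between 0.52 and 0.78, and the WT list had 2, of which one of 3702 bases (chr10:99263231-99266932) stood at 1.63. At the gene end both lists held an identical peak of 225 bases (chr10:99267258-99267482), with 0.78 in the KO list and 0.84 in the WT list. The strongest peaks differed by -0.85 and did not overlap, while the identical peak differed by -0.07. Dusp2, a nuclear phosphatase of immune cells, had 1.04 in a KO peak of 400 bases and 1.19 in a WT peak of 2215 bases that ran over the whole gene.

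Dusp8, a phosphatase of JNK and p38, was the exception. The KO list had 1 peak on it, of 150 bases in the 3′ UTR (chr7:142081790-142081939), at 3.48 with an adjusted p of 5.46e-07. The WT list had 3 peaks, the strongest at 1.72 over 2062 bases (chr7:142081615-142083676), with an adjusted p of 2.33e-19. The KO peak lay inside the WT one, and the difference of 1.77 was the highest among members. It rests on 1 short peak with no replicate.

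Of the atypical DUSP genes, which lack the kinase-binding domain, 7 of 9 were lower in the KO list, beside 73.4% of all genes. Dusp23 had 0.79 in the KO list (1589 bases, chr1:172631214-172632802) and 2.17 in the WT list (2064 bases, chr1:172630789-172632852), a difference of -1.38 with 1 peak in each list. Dusp3, which acts on ERK and JNK, had 1.75 in the KO list (2475 bases) and 2.57 in the WT list (2525 bases) over nearly the same 3′ UTR stretch. Dusp11, an RNA phosphatase despite its name, had 0.49 in the KO list (intron) and 1.16 in the WT list (3′ UTR). These peaks did not overlap. The strongest KO peak that overlaps the WT one had 0.47, a difference of -0.69, while the mean over peaks differed by -0.15. Dusp18 and Dusp19 each differed by -0.58, with 1.34 and 0.73 in the KO list and 1.92 and 1.31 in the WT list. The smallest differences were those of Dusp12 (0.97 in the KO list, 0.95 in the WT list) and Dusp22, a phosphatase that regulates JNK signalling (0.74 in the KO list, 0.69 in the WT list). The Dusp12 values come from different sites, the 5′ UTR in the KO list and the 3′ UTR in the WT list. Dusp12 turned lower in the KO list by the mean over its peaks (-0.13) and with an adjusted p of at most 0.001 (-0.18). Dusp28 had 0.81 in the KO list and 1.11 in the WT list, and Dusp14 had 0.89 (KO) and 1.02 (WT).

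The map of peaks along 6 of these genes shows the forms that the differences took. In Mapk7 a peak at about the same place had a lower log2 in the KO list. In Map3k6, Map2k3, Dusp4 and Dusp6 a long WT peak was shorter or in pieces in the KO list. In Mapk3 the peaks of both lists nearly coincided.

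**Figure D3:**
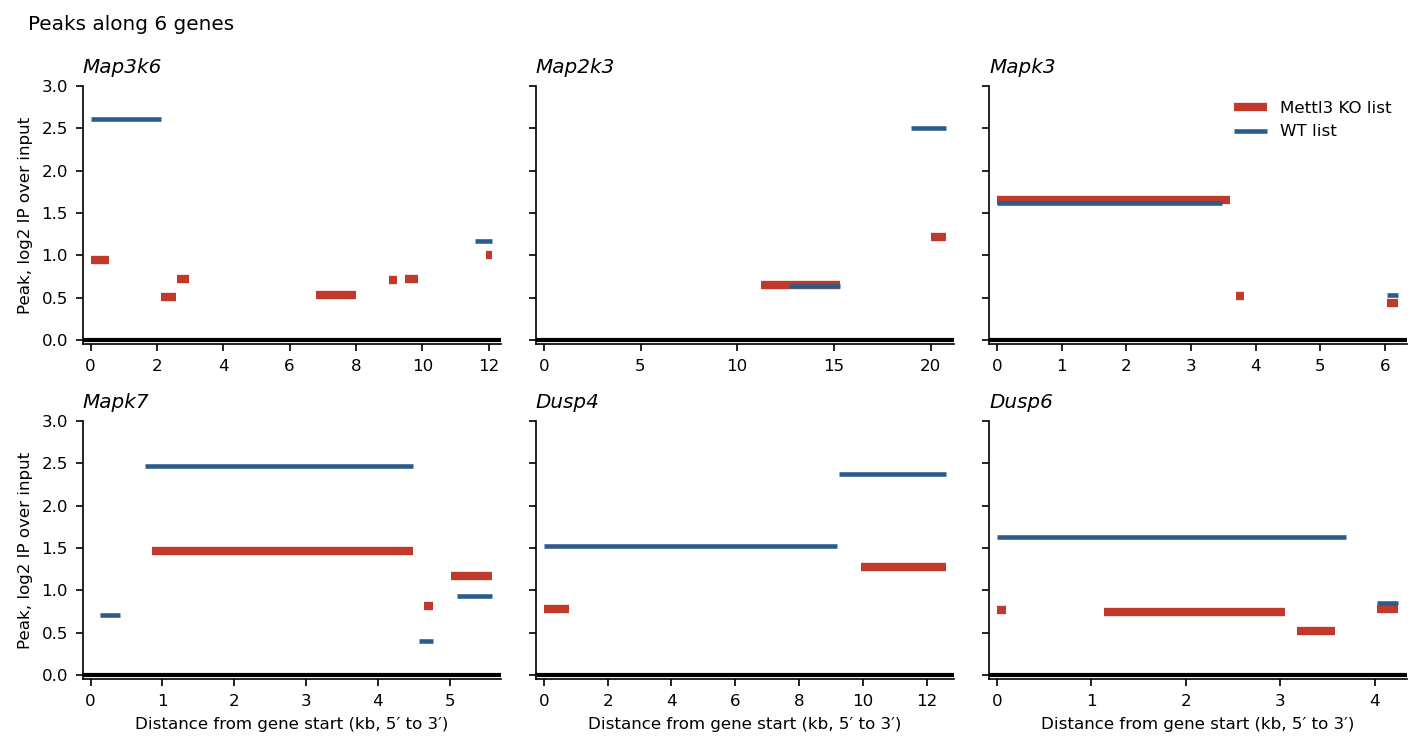
Peaks along Map3k6, Map2k3, Mapk3, Mapk7, Dusp4 and Dusp6, with distance from the annotated gene start in kb of genome on the x axis and the peak's log2 of IP over input on the y axis (KO list in thick red, WT list in thin blue). Mapk3 lines lie together at 1.65 (KO) and 1.62 (WT), and the Dusp6 KO peaks lie between 0.52 and 0.78 against 1.63 for the long WT peak.

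Where the peaks lay was compared next. Of the member peaks, 48.6% (107 of 220) in the KO list and 54.1% (100 of 185) in the WT list were annotated to the 3′ UTR, beside 51.4% (KO) and 53.0% (WT) of all peaks. Coding exons held 32.7% (72 peaks) in the KO list and 23.8% (44 peaks) in the WT list, beside 25.1% (KO) and 21.1% (WT) of all peaks. The 95% Wilson intervals, which cover counting error only, were 26.9% to 39.2% in the KO list and 18.2% to 30.4% in the WT list, and they overlap. Of the coding-exon peaks, 37 of the 72 in the KO list and 14 of the 44 in the WT list (51.4% and 31.8%) had no partner in the other list, beside 39.9% of all KO and 27.1% of all WT coding-exon peaks. The 5′ UTR held 13.2% in the KO list and 14.6% in the WT list.

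**Figure D4:**
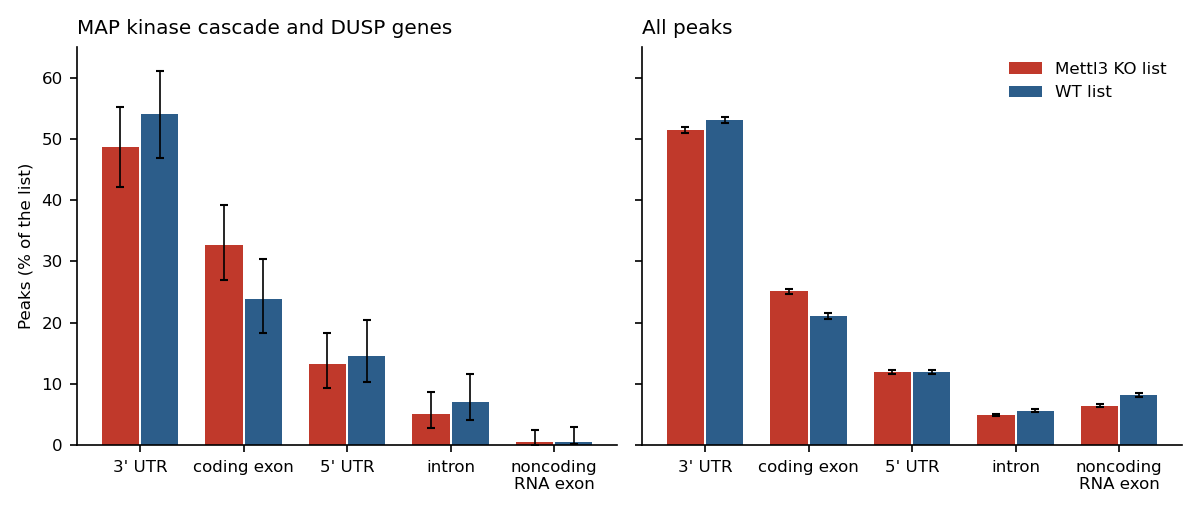
Share of m6A peaks in each annotated region (percent of the list), for the members (left) and for all peaks (right), with the Mettl3 KO list in red and the WT list in blue and 95% Wilson intervals as error bars. Coding exons hold 32.7% of member peaks in the KO list and 23.8% in the WT list, and 3′ UTRs hold 48.6% (KO) and 54.1% (WT).

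The strongest peak of a member was in the 3′ UTR for 46 of 62 genes in the KO list and 44 of 60 in the WT list. Counts by region are to be read beside the 73.4% of all genes that were lower in the KO list. By the region of the WT peak, the 44 genes with a 3′ UTR peak had a median difference of -0.49, with 34 lower. The 5 genes with a coding-exon peak had -0.69, with 5 lower. The 7 genes with a 5′ UTR peak had a median of 0.03, with 3 lower and 4 higher. That small group holds the extremes Map3k6 (-1.62) and Map3k12 (0.71), beside Mapk3 and Map3k8 near 0.

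Peaks of the members were mostly found in both lists. A same-strand overlap of at least 1 base with the other list was found for 71.4% of KO member peaks (157 of 220, 65.1% to 76.9%) and 77.3% of WT member peaks (143 of 185, 70.7% to 82.7%), beside 72.9% (KO) and 77.2% (WT) of all peaks. Peaks without a partner were weak, with a median log2 of 0.57 in the KO list (63 peaks) and 0.66 in the WT list (42 peaks). The strongest peaks of a gene overlapped each other in 45 of 60 members, and this share was not counted over all genes. Of these 45, 35 were lower in the KO list. In the other 15, of which 11 were lower, the values come from different sites. Both counts are near the 73.4% of all genes that were lower.

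The width of the WT peak went with the difference. The strongest WT peak spanned over 1000 bases in 44 of 60 members, of which 36 were lower in the KO list with a median of -0.63. In the 16 with a WT peak of up to 1000 bases, 10 were lower and the median was -0.04. Over all genes the same split gave 84.9% lower with a median of -0.49 (6401 genes) and 61.1% lower with a median of -0.08 (5922 genes). Span counts introns. Among the 22 members whose WT peak was 4-fold or more, 21 were lower, and over all genes so chosen 3143 of 3351 were lower. The part of peak width and of this choice in the differences was not tested.

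Other ways of taking a gene's value gave other sizes and turned the order of some genes. With the mean over all peaks of a gene, 53 members were lower and 7 higher, beside 77.2% of all genes lower. The median was -0.19 beside -0.17 for all genes. With the strongest KO peak that overlaps the strongest WT peak, 45 of 55 members were lower, beside 78.0% of all genes. The median was -0.57 beside -0.31 for all genes. With peaks of at most 1000 bases alone, 44 members could be compared. Of these, 23 were lower and 21 higher, beside 58.2% of all genes lower, and the median was -0.0055 beside -0.054 for all genes. In that setting Dusp19, whose strongest peaks are short in both lists, kept its difference of -0.58. Mapk14 (-0.84) and Map3k14 (-0.51) were also lower in the KO list, but from short peaks at sites that do not overlap between the lists. Map3k3, Map2k4, Mapk7 and Mapk8ip3 were higher by 0.03 to 0.23, and no value was left for Map2k3, Dusp4 and Dusp23. Map3k11 (1.14) and Dusp1 (0.62) were also higher there, because their strongest WT peak (2204 and 1025 bases) is dropped and their strongest KO peak (768 and 950 bases) is kept. Of 12 member peaks with identical coordinates in both lists, 10 were lower in the KO list, beside 61.9% of all 2916 such peaks. The median was -0.053 beside -0.057 over all such peaks. The plot of settings shows these values gene by gene.

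**Figure D5:**
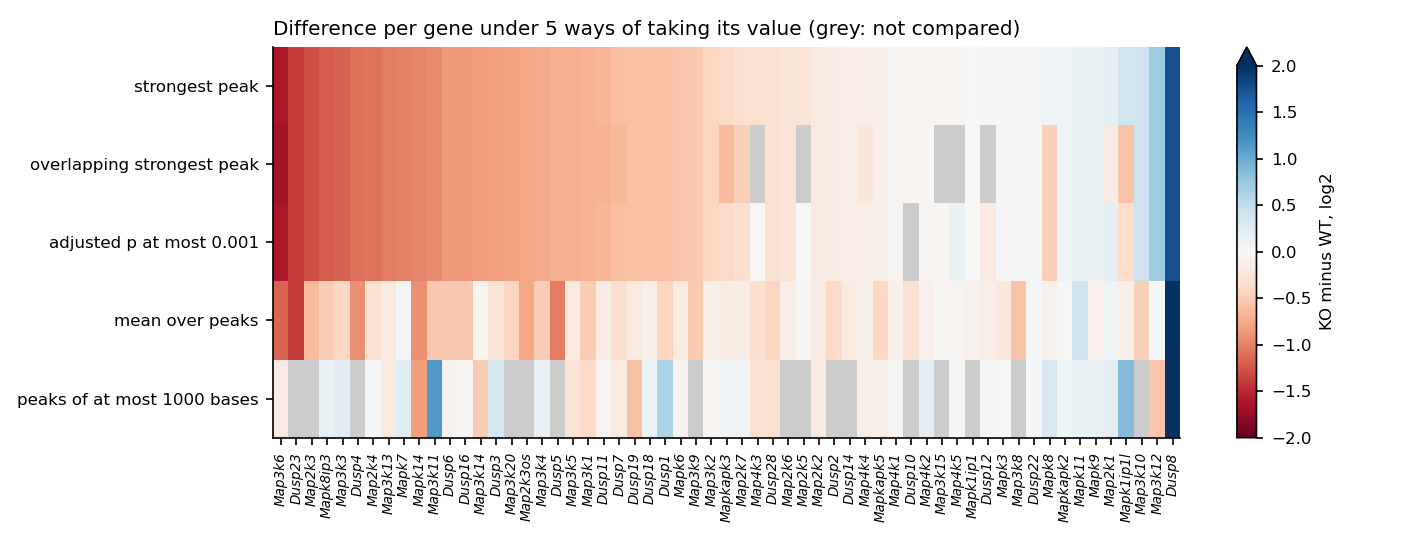
KO minus WT on the log2 scale for the members in both lists (columns, 1 of the 60 not drawn) under 5 ways of taking a gene's value (lines), red for lower and blue for higher in the KO list and grey where a gene could not be compared. The upper 3 lines look alike, and in the lowest line, with peaks of at most 1000 bases, lower and higher genes are mixed (23 lower and 21 higher over all members).

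The other genes of the pathway were read from 6 lists chosen by known function. Genes that feed the cascade from RAS and RAF were lower in the KO list in 17 of 20 with a peak in both lists, with a median of -0.50, beside 73.4% lower and -0.25 for all genes, against which the counts of the other lists are also to be read. Hras, a RAS GTPase, had 2.55 in the KO list and 3.94 in the WT list, and Spry2, which restrains RAS signalling, had 2.09 (KO) and 2.77 (WT). Of the scaffolds, 10 of 13 were lower, with a median of -0.46. Ksr2, which holds RAF, MEK and ERK together, had 3.01 in the KO list and 3.48 in the WT list, and Tab1, an activator in Toll-like receptor signalling that also binds p38, had 2.50 (KO) and 3.25 (WT).

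Downstream of the MAP kinases, 6 of 7 effector kinases were lower in the KO list, with a median of -0.36. Rps6ka5, a nuclear kinase that phosphorylates histone and CREB, had 1.95 in the KO list and 2.31 in the WT list, and Rps6ka3 had 1.57 (KO) and 1.64 (WT). Transcription factors regulated by MAP kinases were lower in 12 of 17, with a median of -0.24. Elk4, a partner of serum response factor, had 2.23 in the KO list and 3.33 in the WT list, and Creb1 had 2.19 (KO) and 3.30 (WT). Egr2 had 3.16 in the KO list and 3.12 in the WT list, and Egr3 had 2.77 in the KO list and 1.52 in the WT list, the one gene of the 6 lists higher by 1 or more. With peaks of at most 1000 bases Egr2 was also higher, by 1.44, but by the mean over its peaks it was lower in the KO list, at -0.24.

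Among other phosphatases that act on MAP kinases, 8 of 9 were lower in the KO list, with a median of -0.31. Ppm1d had 1.72 in the KO list and 2.95 in the WT list, and Ppm1b had 1.80 (KO) and 2.69 (WT). Styx, a catalytically inactive relative of the DUSP proteins, had 1.84 in the KO list and 1.15 in the WT list. With peaks of at most 1000 bases its difference was -0.02. GADD45 proteins and other MAP3K activators were split, 8 lower and 6 higher of 14, with a median of -0.08. Gadd45g had 2.60 in the KO list and 3.58 in the WT list, and Gadd45a had 1.97 (KO) and 1.90 (WT). By the mean over their peaks both turned, with Gadd45g higher in the KO list by 0.22 and Gadd45a lower, at -0.36. With peaks of at most 1000 bases the medians of the 6 lists lay between -0.24 and 0.04.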

How the data were processed

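Per the labels' protocols, polyadenylated RNA was fragmented, precipitated with an m6A antibody and made into strand-marked libraries. HISAT2, StringTie, HOMER, edgeR, fastp and FastQC appear in the submitters' processing notes without roles. Neither the genome build, the peak caller nor any pooling of replicates is given in the sources used here. The deposited columns are, per the file headers, the log2 fold (IP over input), the p-value and its adjusted form, the region and the gene of each peak. All deposited p-values lay below 0.05. The depth per library is unknown here, so intervals cover the counting of peaks or genes only.

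Starts were counted from 0 in the lists (5186 KO and 5098 WT peaks began at their gene's start once 1 was added) and are printed counted from 1. The strongest peak of a gene gives its log2 value, differences are KO minus WT, and the interval of a median is an order-statistic interval over genes. Overlap was taken with bedtools 2.31.1, other steps with SciPy 1.17.1, numpy 2.4.6 and pandas 2.3.3 under Python 3.11.15, figures with matplotlib 3.10.9, and the steps were tested on simulated data. A peak reached a gene end or start if within 50 bases of it. The members, lists and settings were chosen with earlier results of these data known. Genes named were the core kinases and phosphatases, in each role the 3 with the strongest peak, members in 1 list only, the 10 with the largest differences, and of each pathway list the 2 with the strongest peak; other genes were named after their values were seen. Alternatives were stricter adjusted p or fold, short peaks, equal numbers of peaks, other overlaps, identical peaks, the mean over peaks and centring on all genes. Input expression, differential m6A and the sequence of 3′ UTR peaks were not analysed here, and 1 member that the rule names is not reported here beyond the counts and medians.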

Additional observations from a re-analysis of the deposited data

How the results depend on the processing

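No paired analysis was possible because the lists hold no values per library, and for the same reason leaving out each replicate and a replicate block could not be run. With peaks of at least 4-fold, 5 members had a peak in the KO list, 22 in the WT list and 3 in both (2 lower, 1 higher; 0 by 1 or more in either direction); 60% of KO and 13.04% of WT member peaks then overlapped, 60% (KO) and 65.2% (WT) lay in 3′ UTRs, and 0% (KO) and 13.04% (WT) in coding exons. With peaks of at most 1000 bases, 23 of 44 members were lower, 0 by 1 or more, 2 were higher by 1 or more, the median was -0.0055, the overlap 39.2% of KO and 58.1% of WT peaks, and the KO shares 57.7% in 3′ UTRs and 23.8% in coding exons. The MAP2K (0.051) and atypical DUSP (0.023) medians and Map3k3 (0.22), Map2k4 (0.032), Mapk7 (0.23) and Mapk8ip3 (0.14) then changed sign, and the MKP median was -0.029. Taking the mean over all peaks of a gene, 7 members were higher and 3 lower by 1 or more, and the MAPK median (-0.089) and Mapk7 (0.024) changed sign; with overlapping strongest peaks the MAPK median was -0.24. Identical peaks gave 10 lower and 2 higher of 12, with a median of -0.053 and 0 by 1 or more in either direction, and 5.45% of KO and 6.49% of WT peaks. Centred on the median of all genes, 25 members were higher, 3 were lower by 1 or more, and the median was -0.11. An adjusted p of at most 0.001 gave an overlap of 85.7% of KO and 83.6% of WT peaks and a KO coding-exon share of 26.8%. A reciprocal overlap of 50% gave 46.8% of KO and 55.7% of WT peaks, and lists of equal length gave a KO overlap of 77.6%. The cause of these changes was not tested, and several of the settings also leave fewer peaks or genes. Another 49 summary values stayed within 1.5 times or within their counting interval. The limits are 1 list per genotype, unknown depth, and peak borders that differ between lists.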

Other observations

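Genes that the deposited lists annotate to the KEGG MAPK signalling pathway, a set added after seeing the data, numbered 203, of which 45 were members. Outside the members and the lists above, 110 remained, with 99 in both lists. Of these, 75 were lower in the KO list and 24 higher, with a median of -0.32, and 12 were lower by 1 or more. These shares, 75.8% and 12.1%, are close to the 73.4% and 9.54% of all genes. Taking the mean over all peaks of a gene, 75 were lower and 24 higher, and the median was -0.19. Among growth factor and receptor genes, Efna2 had 1.38 in the KO list and 3.57 in the WT list, Fgf2 had 0.84 (KO) and 2.17 (WT), and Igf1r had 1.82 (KO) and 3.03 (WT). Prkca, a protein kinase C, had 0.83 in the KO list and 2.65 in the WT list, and Traf6, the ubiquitin ligase of Toll-like receptor signalling, had 1.98 (KO) and 3.03 (WT). Akt2 (3.74 in the KO list, 3.18 in the WT list) was higher in the KO list. The strongest Fgfr2 peak was also higher (2.34 in the KO list, 1.41 in the WT list), but by the mean over its peaks Fgfr2 was lower, at -0.35. In the KO list alone were 3 of these genes and in the WT list alone 8, among them Cacnb1, a calcium channel subunit, with 4.10. These values have no replicate and were not tested.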
